A study of Mus musculus with 7 samples.

Results

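The genes described here are 56 genes of mitosis and of the G2/M transition, the passage from the end of DNA synthesis into cell division. They were taken by gene symbol from the count table of CD8+ T cells treated in culture with small extracellular vesicles (sEV), which lists 55367 genes. Each of the 56 symbols had its own row, and all 56 passed the minimum of a mean of 5 counts per library. The label is a description of known gene function and did not use any measured value. The members were, however, chosen with earlier results of these data known.

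The cells were CD8+ T cells sorted from the spleens of Foxp3 YFP/cre mice, a strain in which Foxp3-expressing regulatory T cells carry a YFP-Cre fusion and which every library shared, and were exposed to sEVs for 48 hours at 100 µg/ml as the labels state it. The control samples received vesicles from spleens of healthy mice (HCME-sEVs, n = 4), and the other samples received vesicles from the spleens of leukemic mice (LME-sEVs, n = 3). The leukemic mice carry the Eμ-TCL1 transgene, which drives the human oncogene TCL1 in B cells and gives a disease resembling chronic lymphocytic leukemia (CLL). The study's methods describe CD8+ T-cell cultures on plates coated with anti-CD3, with IL2 and anti-CD28, so both groups were under activation. No library without vesicles was analysed here. Group sizes follow the sample labels, and the study's text gives them the other way round. The dose also follows the labels, whereas the study's methods describe amounts scaled to those in each kind of spleen. The study recovered more sEVs from leukemic spleens, so vesicle amount and vesicle origin may not be separable between the groups. No source used here says whether the libraries came from separate animals or cultures, or how many animals were pooled, so the p-values measure the spread between these libraries, which may be technical. The comparison asks whether leukemic vesicles changed the division program of these cells relative to vesicles from healthy spleens.

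A T cell that has met its antigen enters rapid division, and the genes of this group are then switched on together late in the cell cycle. CDK1 with cyclin A or cyclin B starts mitosis, Polo-like and Aurora kinases build the spindle, condensin and topoisomerase II compact and disentangle the chromosomes, kinetochores attach them to microtubules, and the spindle checkpoint holds back the anaphase-promoting complex until attachment is complete. In resting cells the DREAM complex, in which RB-like proteins and E2F partners act with the MuvB core, keeps many of these promoters silent through a short element called the cell cycle genes homology region (CHR). In dividing cells MYBL2 and FOXM1 bind MuvB and activate the same promoters, often together with NF-Y at CCAAT boxes.

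Many promoters of the members carried these letters, and those of the called members with a matched promoter window are shown. RefSeq promoter windows on GRCm38.p6 were matched for 47 of the 56 members, and *Smc4* was not among them. Within the 250 bases before the annotated start, searched on both strands, the CHR letters TTTGAA were present in 18 of the 47 member promoters (38.3%) and in 16.3% of all 27025 promoters. The CCAAT box was present in 34 member promoters (72.3%) against 34.5% of all, and at least 2 of them in 23 (48.9%) against 10.5%. Both elements together were found in 16 (34.0%) against 5.76% of all, and an E2F-like site, spelled TTCCCGC or alternatively TTGGCGC or else in the form TTCGCGC, in 7 (14.9%) against 6.84%. The stretches below are written 5′ to 3′ on the strand of the gene, which is the minus strand for all of them, and capitals mark CHR letters or a CCAAT box on either strand. A letter match is a description and not a measured binding site.
*Cdc20*, chr4:118437353-118437593: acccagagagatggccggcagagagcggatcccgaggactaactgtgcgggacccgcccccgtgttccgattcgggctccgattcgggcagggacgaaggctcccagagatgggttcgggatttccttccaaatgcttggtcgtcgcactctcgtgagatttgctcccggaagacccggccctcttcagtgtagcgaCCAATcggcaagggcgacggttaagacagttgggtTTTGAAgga
*Spc25*, chr2:69206214-69206463: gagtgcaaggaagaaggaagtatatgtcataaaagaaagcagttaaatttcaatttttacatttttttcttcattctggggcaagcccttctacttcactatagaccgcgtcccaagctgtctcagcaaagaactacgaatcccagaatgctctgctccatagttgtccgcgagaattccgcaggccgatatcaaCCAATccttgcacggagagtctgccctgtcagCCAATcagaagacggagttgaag
*Ncapd2*, chr6:125191702-125191836: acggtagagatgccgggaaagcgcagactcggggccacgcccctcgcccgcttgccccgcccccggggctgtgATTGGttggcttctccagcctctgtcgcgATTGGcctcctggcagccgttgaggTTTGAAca
The printed stretches hold a CHR and a CCAAT box for *Cdc20*, which fell, a pair of CCAAT boxes and no CHR for *Spc25*, which also fell, and a CHR with a pair of CCAAT boxes for *Ncapd2*, which rose. The *Cdc20* and *Ncapd2* stretches are shorter than 250 bases because the bases inside the GENCODE gene were left out. The full 250 bases held 2 CCAAT boxes for *Cdc20*, and 3 CCAAT boxes and 1 E2F-like site for *Ncapd2*.

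Of the 56 genes, 4 passed the test, in opposite directions, and most of the others leaned slightly lower with LME-sEVs. *Cdc20* and *Spc25* were lower with LME-sEVs, and the condensin genes *Smc4* and *Ncapd2* were higher, each by less than 1.3-fold. The 4 calls are 7.14% of the members, against 8.96% of all 12623 genes tested (edgeR quasi-likelihood test, Benjamini-Hochberg adjusted p under 0.05 over all genes). By direction, 2 members were lower against 5.21% of all genes, and 2 were higher against 3.75%. The share of calls among the members was thus near that of all genes tested. The median standard error was 0.087 for the members against 0.145 for all genes, so these shares do not compare genes measured with like precision. None of the 56 passed the study's cutoff of a log2 fold change beyond 1, which 1.28% of all genes passed, and none did in any of the 18 alternative fits, DESeq2 and limma-voom included. An unadjusted p under 0.05 was reached by 11 members on the lower side and 2 on the higher side. Of all 12623 genes tested, 1548 reached it on the lower side and 1316 on the higher side. Without each library in turn, between 1 and 5 members were called. Only 1 call remained without LME-sEV replicate 2 (*Cdc20*) and without LME-sEV replicate 3 (*Smc4*), and 2 remained without LME-sEV replicate 1 (*Spc25* and *Smc4*).

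The fold changes were small and precisely measured. They ran from a log2 fold change of -0.35 (*Spc25*) to 0.31 (*Smc4*), with a median of -0.05 against 0.01 over all genes tested and a median standard error of 0.09. The 95% interval lay within -0.5 to 0.5 for 54 members and within -1 to 1 for all 56, so a change of 2-fold lay outside the interval of every member. The exceptions to the narrower bound were *Spc25* and *Cdc25c*, the latter the least abundant member at a mean of 11.97 CPM (counts scaled to library size with TMM factors). For 37 members the fitted change was under 10%, and for 33 the difference between group means was smaller than the SD of the HCME-sEV libraries. The sign leaned to one side, with 40 of 56 (71.4%) negative against 48.5% of all genes. This lean depended on the scaling: with library size only, 32 were negative and the median was -0.01, because all genes then shifted to a median of 0.06, and relative to all genes the members stayed at -0.06 under either scaling. Scaling also moved the lower share of calls over all genes, from 58.2% with TMM to 43.2% with library size only.

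**Figure D1:**
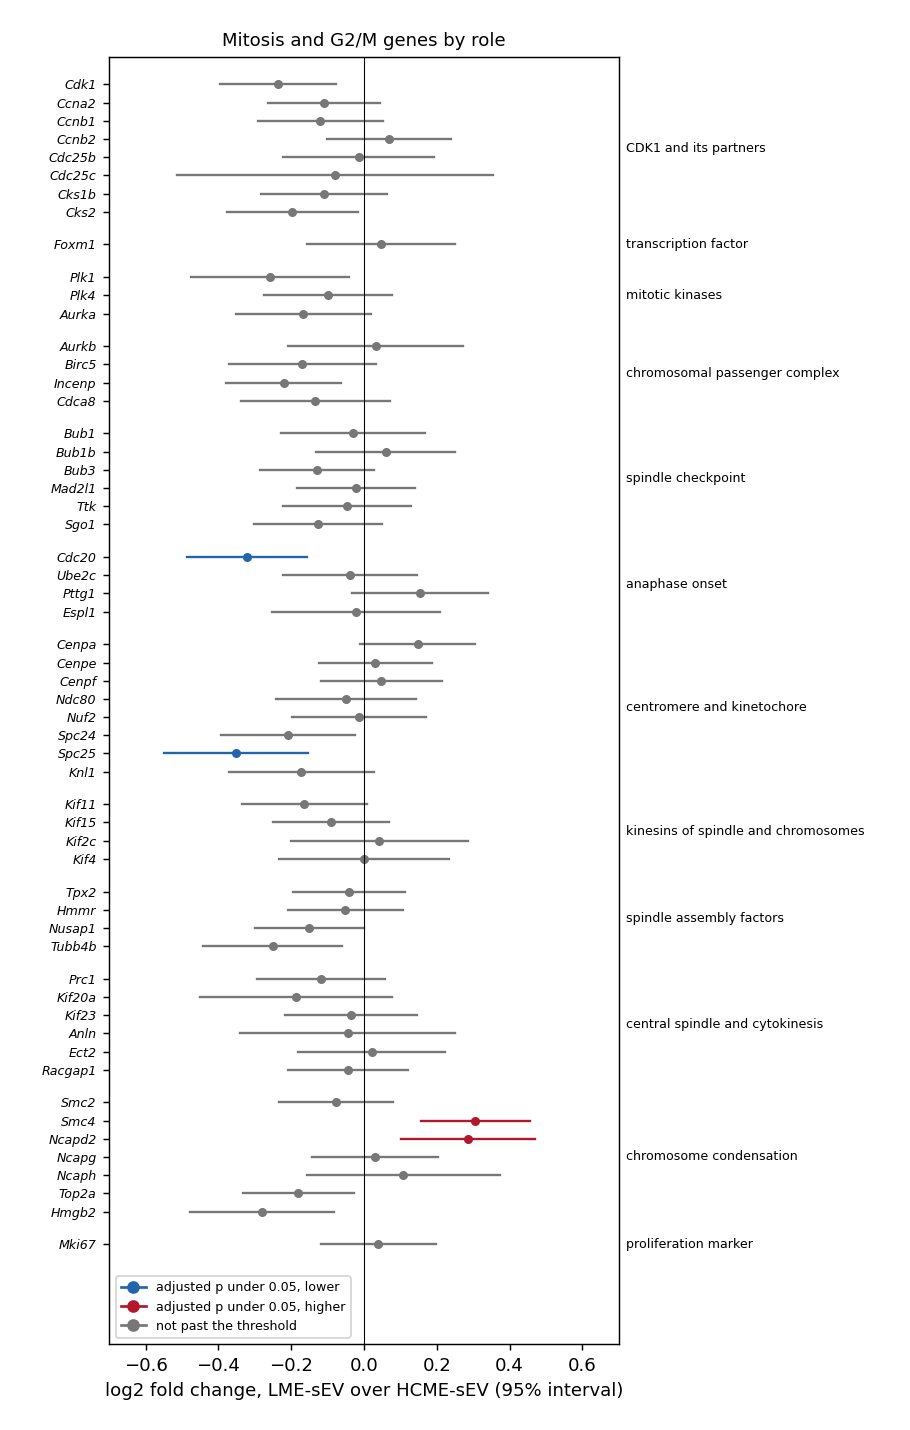
Log2 fold change of each of the 56 members (LME-sEV over HCME-sEV, x axis) with its 95% interval, grouped by role. Blue marks the 2 members that were lower at an adjusted p under 0.05, red the 2 that were higher and grey the other 52, and no interval reaches -1 or 1.

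Summed over the 56 members, the level was 14139, 14136, 13574 and 14427 CPM in the HCME-sEV libraries and 13876, 13280 and 13459 CPM in the LME-sEV libraries. The groups overlap in this sum, in which *Smc4* weighs heavily. Without *Smc4*, left out after the values were seen, the sum was 12043 to 12865 CPM with HCME-sEVs and 11317 to 11922 CPM with LME-sEVs, without overlap. With equal weight for each member, the mean deviation from a member's average over the 7 libraries was -0.001 to 0.07 on the log2 scale with HCME-sEVs and -0.07 to -0.02 with LME-sEVs, again without overlap. Both measures depended on the scaling. With library size only, the groups overlapped in the mean deviation (-0.04 to 0.07 against -0.05 to 0.02) and in the sum without *Smc4* (12020 to 12889 CPM against 11477 to 12049 CPM), and with upper-quartile factors the sum without *Smc4* overlapped too. The members took between 1.35% and 1.45% of all counts in every library. In bulk RNA a smaller share of cells in mitosis and less mitotic RNA per cell cannot be told apart, and this holds for every level below.

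CDK1 and its partners held 8 members, none of which passed the test. *Cks1b*, a small CDK-binding protein and the most abundant of them, was at 462, 398, 369 and 437 CPM with HCME-sEVs and at 410, 371 and 378 CPM with LME-sEVs, and the groups overlap. *Cdk1* itself, the kinase that drives entry into mitosis, was at 319, 287, 286 and 291 CPM with HCME-sEVs and at 268, 247 and 239 CPM with LME-sEVs. All LME-sEV libraries were thus below all HCME-sEV libraries, yet the log2 fold change of -0.24 (SE 0.08) had an adjusted p of 0.0593. *Cdk1* was called by DESeq2 (adjusted p = 0.0482) and by the edgeR likelihood ratio test (adjusted p = 0.0444), and without 1 library its adjusted p lay between 0.0507 and 0.256.

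The cyclins that activate CDK1 differed less. *Ccna2* had a log2 fold change of -0.11 with groups that do not overlap (238 to 256 CPM against 218 to 235 CPM). *Ccnb1* was at -0.12 and *Ccnb2* at 0.07, with overlapping groups for both. *Cdc25b*, a phosphatase that activates CDK1, was at -0.01, with a 95% interval of -0.22 to 0.19. *Cks2* had a log2 fold change of -0.20 (adjusted p = 0.172), and the interval of *Cdc25c* was the widest of all, from -0.51 to 0.36. *Foxm1*, the transcription factor of this program, was at 53.8, 53.5, 52.4 and 56.4 CPM in the HCME-sEV libraries and at 49.3, 60.3 and 57.4 CPM in the LME-sEV libraries. Its log2 fold change was 0.05 with an interval of -0.16 to 0.25, and the LME-sEV libraries lay on both sides of the controls.

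Among the mitotic kinases, *Plk1*, which acts at centrosomes, kinetochores and the cleavage furrow, was at 427, 347, 311 and 428 CPM with HCME-sEVs and at 357, 304 and 290 CPM with LME-sEVs. Replicates 1 and 4 of the controls were far above replicates 2 and 3, and the gap within the controls was larger than the difference of the group means. The log2 fold change was -0.26 (SE 0.10, adjusted p = 0.133), and without HCME-sEV replicate 3 it was -0.34 with an adjusted p of 0.0239. *Aurka*, the Aurora kinase of the spindle poles, was at -0.17, and *Plk4*, which starts centriole duplication, at -0.10, and neither passed the test.

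The chromosomal passenger complex joins *Aurkb* to *Incenp*, *Birc5* (survivin) and *Cdca8* (borealin) and corrects faulty attachments of chromosomes. *Birc5* was at 488, 417, 394 and 538 CPM in the HCME-sEV libraries and at 452, 376 and 399 CPM in the LME-sEV libraries, again with control replicates 1 and 4 above the rest. *Incenp*, the scaffold of the complex, had groups that do not overlap, 179 to 188 CPM against 150 to 164 CPM, and a log2 fold change of -0.22 (SE 0.08, adjusted p = 0.0761). *Aurkb*, the catalytic subunit, was at 0.03, with an interval of -0.21 to 0.27. *Cdca8* was at -0.13 and did not pass the test.

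The 6 spindle checkpoint members, none of them called, had log2 fold changes between -0.13 and 0.06. *Bub3*, a kinetochore adaptor for the BUB1 kinases and the most abundant of them, was at 259, 254, 263 and 276 CPM with HCME-sEVs and at 255, 239 and 228 CPM with LME-sEVs, and the groups overlap narrowly. *Mad2l1*, whose product binds CDC20 while chromosomes are unattached, was at -0.02 with an interval of -0.18 to 0.14. *Bub1* was at -0.03, *Bub1b* at 0.06, *Ttk* (the checkpoint kinase MPS1) at -0.05, and *Sgo1*, which protects centromeric cohesion, at -0.13.

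*Cdc20*, the activator of the anaphase-promoting complex and the target of the checkpoint, fell with LME-sEVs. It was at 177, 166, 174 and 173 CPM in the HCME-sEV libraries (173 ± 4.68, SD, n = 4) and at 128, 148 and 137 CPM in the LME-sEV libraries (138 ± 10.1, SD, n = 3). The groups do not overlap, and the SD of the controls was small beside the difference. The level was 1.25-fold lower, a log2 fold change of -0.32 (SE 0.08, adjusted p = 0.0144), and the exact two-sided permutation test over the 35 ways to choose 3 of 7 libraries gave p = 0.0286, unadjusted and the smallest it can give. The call was lost without LME-sEV replicate 1 (adjusted p = 0.0894) and without LME-sEV replicate 3 (adjusted p = 0.0770). *Cdc20* lies at chr4:118432901-118437352 on the minus strand of GRCm38 as a protein-coding gene, and its exons overlap those of *Elovl1* on the opposite strand. *Elovl1* had a log2 fold change of -0.08 (adjusted p = 0.708). A near-identical 3′ end belongs to *Gm7856*, which had at most 1 count in any library.

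The other members of anaphase onset were not called. *Ube2c*, the ubiquitin-conjugating enzyme of the same complex, was at 220, 271, 254 and 265 CPM with HCME-sEVs and at 232, 274 and 231 CPM with LME-sEVs, fully overlapping. *Pttg1* (securin), which holds separase inactive and is destroyed at anaphase, had a log2 fold change of 0.15 (adjusted p = 0.330). *Espl1* (separase), which cuts cohesin, was at -0.02.

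**Figure D2:**
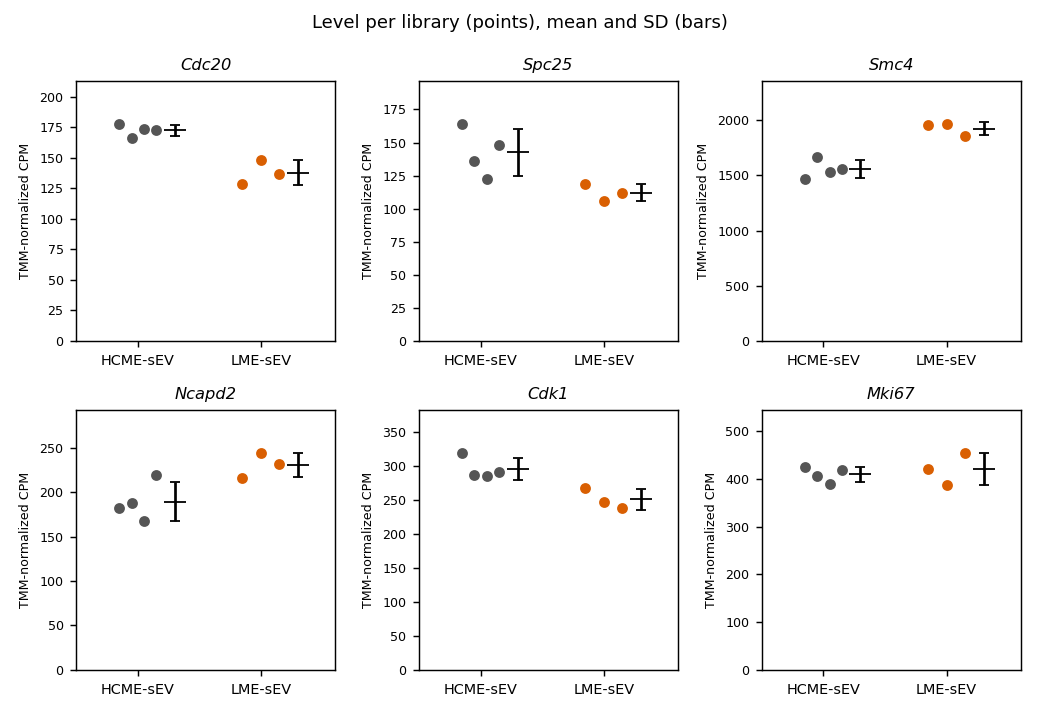
TMM-normalized CPM (y axis, from 0) in each of the 4 HCME-sEV and 3 LME-sEV libraries (points) with mean and SD (bars) for the 4 called members and for *Cdk1* and *Mki67*, which were not called. The groups do not overlap for *Cdc20*, *Spc25*, *Smc4* and *Cdk1*, and overlap for *Ncapd2* and *Mki67*.

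*Spc25*, a subunit of the NDC80 complex that couples kinetochores to microtubules, also fell. It was at 164, 136, 122 and 148 CPM with HCME-sEVs (143 ± 17.6, SD, n = 4) and at 119, 106 and 112 CPM with LME-sEVs (112 ± 6.19, SD, n = 3). The groups do not overlap, although HCME-sEV replicate 3 and LME-sEV replicate 1 are close. The level was 1.27-fold lower, a log2 fold change of -0.35 (SE 0.09, adjusted p = 0.0244), with an unadjusted exact permutation p of 0.0571. The call was lost without HCME-sEV replicate 1 (adjusted p = 0.0549), HCME-sEV replicate 4 (0.0628), LME-sEV replicate 2 (0.137) or LME-sEV replicate 3 (0.0988). *Spc25* is a protein-coding gene at chr2:69193895-69206194 on the minus strand, with no overlapping exon and no near-identical 3′ end found.

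The partners of *Spc25* in the NDC80 complex were not called. *Spc24*, which forms a dimer with it, had a log2 fold change of -0.21 (SE 0.09, adjusted p = 0.159), while *Ndc80* was at -0.05 and *Nuf2* at -0.01. The ratio of *Spc25* to *Ndc80* was 1.37 to 1.72 in the HCME-sEV libraries and 1.15 to 1.28 in the LME-sEV libraries, a ratio chosen after the values were seen. *Knl1*, the scaffold that recruits checkpoint proteins, was at -0.17. *Cenpe*, a kinesin of the kinetochore and the most abundant of this role, was at 298, 319, 306 and 331 CPM with HCME-sEVs and at 340, 306 and 316 CPM with LME-sEVs. *Cenpf* was at 0.05, and *Cenpa*, the histone variant that marks centromeres, at 0.15 (interval -0.01 to 0.31, adjusted p = 0.254).

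Motors and spindle factors held no call. *Kif15*, a kinesin that helps keep the spindle bipolar, was at 251, 245, 238 and 264 CPM in the HCME-sEV libraries and at 250, 221 and 232 CPM in the LME-sEV libraries. *Kif11* (Eg5), which pushes the spindle poles apart, was at -0.16 (adjusted p = 0.244), *Kif2c* at 0.04 and *Kif4* at 0.00. *Nusap1*, which bundles spindle microtubules, was at 331, 343, 350 and 326 CPM with HCME-sEVs and at 296, 313 and 303 CPM with LME-sEVs. Its groups do not overlap, but the log2 fold change of -0.15 had an adjusted p of 0.218. *Tubb4b*, a beta-tubulin, had a log2 fold change of -0.25 (SE 0.09, adjusted p = 0.0969). Without HCME-sEV replicate 3, whose level of 234 CPM was the lowest control, it was -0.33 with an adjusted p of 0.0155. *Tpx2* and *Hmmr*, which nucleate and organize spindle microtubules, were at -0.04 and -0.05.

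For the central spindle and cytokinesis, the 6 members were at log2 fold changes between -0.19 and 0.02. *Racgap1*, which with *Kif23* forms the centralspindlin complex, was at 163, 166, 175 and 190 CPM with HCME-sEVs and at 168, 171 and 165 CPM with LME-sEVs, within the range of the controls. *Kif23* was at -0.03, *Prc1*, the bundler of the central spindle, at -0.12, *Ect2*, which activates RhoA at the furrow, at 0.02, and *Anln* at -0.04. *Kif20a* had the most variable controls of these, from 66.8 CPM in replicate 1 to 113 CPM in replicate 2, against 78.6 to 87.7 CPM with LME-sEVs. Its log2 fold change of -0.19 had an adjusted p of 0.412, and without HCME-sEV replicate 1 it was -0.32 with an adjusted p of 0.0416.

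Chromosome condensation held both members that rose. *Smc4*, an ATPase subunit shared by condensin I and condensin II and the most abundant member over all libraries (mean 1714 CPM), was at 1470, 1664, 1531 and 1562 CPM with HCME-sEVs (1557 ± 81.0, SD, n = 4) and at 1955, 1963 and 1855 CPM with LME-sEVs (1924 ± 60.2, SD, n = 3). Every LME-sEV library lay above every control. The level was 1.24-fold higher, a log2 fold change of 0.31 (SE 0.07, adjusted p = 0.0110), with an unadjusted exact permutation p of 0.0286. The call was lost without LME-sEV replicate 2 (adjusted p = 0.0700). *Smc4* is a protein-coding gene at chr3:69004738-69034623 on the plus strand. Its introns hold *Mir15b* and *Mir16-2*, which had 0 counts in every library of this poly(A)-primed assay.

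*Ncapd2*, a HEAT-repeat subunit of condensin I, was at 182, 187, 168 and 219 CPM with HCME-sEVs (189 ± 21.7, SD, n = 4) and at 216, 244 and 232 CPM with LME-sEVs (231 ± 14.0, SD, n = 3). The groups overlap, since HCME-sEV replicate 4 lies above LME-sEV replicate 1. The level was 1.22-fold higher, a log2 fold change of 0.29 (SE 0.09, adjusted p = 0.0476), with an unadjusted exact permutation p of 0.0857. This was the least stable call. Of the 7 fits on 6 libraries it held in 1, without HCME-sEV replicate 4, and without any other library the adjusted p lay between 0.0569 and 0.217. *Ncapd2* lies at chr6:125168007-125191701 on the minus strand, and its exons overlap *Scarna10* and *Gm28967* on the same strand, both with 0 counts in every library.

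The remaining condensin subunits were not called. *Smc2*, the obligate partner of *Smc4*, was at 763, 721, 668 and 717 CPM with HCME-sEVs and at 728, 645 and 666 CPM with LME-sEVs, with a log2 fold change of -0.08 and an interval of -0.23 to 0.08. The ratio of *Smc4* to *Smc2*, chosen after the values were seen, was 1.93 to 2.31 in the HCME-sEV libraries and 2.68 to 3.04 in the LME-sEV libraries. *Ncapg* was at 0.03 and *Ncaph*, the kleisin that closes the condensin I ring, at 0.11. The subunits specific to condensin II were not called either, with *Ncapg2* at -0.03, *Ncaph2* at -0.05 and *Ncapd3* at 0.12.

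*Top2a* and *Hmgb2*, which act on the same chromosomes, had negative fold changes. *Top2a*, the topoisomerase that disentangles sister DNA, was at 1842, 1748, 1671 and 1841 CPM with HCME-sEVs and at 1674, 1521 and 1509 CPM with LME-sEVs. Its groups overlap by a small margin, 1671 against 1674 CPM, and the log2 fold change of -0.18 (SE 0.07) had an adjusted p of 0.142. *Hmgb2*, a DNA-bending chromatin protein, was at 813, 1046, 1026 and 876 CPM with HCME-sEVs and at 756, 692 and 873 CPM with LME-sEVs. The log2 fold change was -0.28 (SE 0.10, adjusted p = 0.0702), and without HCME-sEV replicate 1 it was -0.34 with an adjusted p of 0.0114. Near-identical 3′ ends of *Hmgb2* belong to 5 other annotated genes, of which *Gm4739* had at most 21 counts and the others at most 4.

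*Mki67*, the gene of the proliferation marker Ki-67, was at 426, 406, 389 and 419 CPM with HCME-sEVs (410 ± 16.3, SD, n = 4) and at 420, 389 and 454 CPM with LME-sEVs (421 ± 32.8, SD, n = 3). The LME-sEV libraries span the controls. The log2 fold change was 0.04, with a 95% interval of -0.12 to 0.20 and an adjusted p of 0.818.

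**Figure D3:**
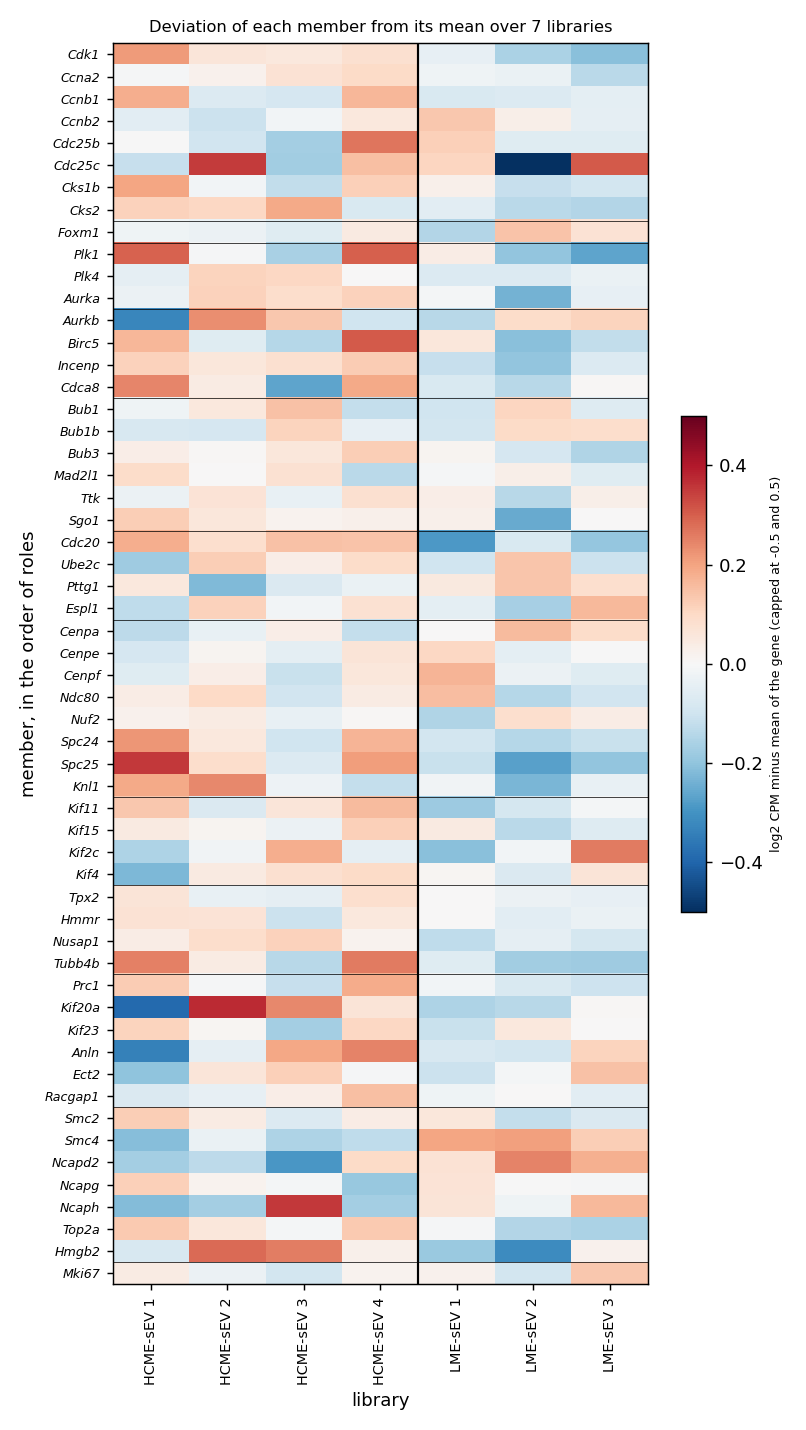
Log2 CPM of each member (rows, in the order of the roles) minus its mean over the 7 libraries (columns, with HCME-sEV left and LME-sEV right of the line), capped at -0.5 and 0.5. *Smc4* is above its mean in all LME-sEV libraries and below it in all HCME-sEV libraries, *Cdc20* and *Spc25* are below their means in all LME-sEV libraries, and *Plk1*, *Birc5* and *Tubb4b* are highest in HCME-sEV replicates 1 and 4.

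Counted without a test, the LME-sEV libraries lay wholly below the controls for 6 members (*Cdk1*, *Ccna2*, *Incenp*, *Cdc20*, *Spc25* and *Nusap1*), beside 10.8% of all genes tested, and wholly above them for 1 (*Smc4*), beside 9.49%. By role, the summed level with LME-sEVs was 0.86 times that with HCME-sEVs for the 3 mitotic kinases, 0.92 times for CDK1 and its partners and 1.001 times for chromosome condensation, where the differences of *Smc4* and *Top2a* were of opposite sign. The spindle assembly factors were at 1118, 1071, 1019 and 1116 CPM with HCME-sEVs and at 1001, 988 and 977 CPM with LME-sEVs, so their sums did not overlap. Those of the spindle checkpoint did not overlap either (883 to 918 CPM against 851 to 878 CPM), while those of the kinases did. The role sums were taken with TMM scaling only, and the gap of the checkpoint sums, 878 against 883 CPM, is narrow, so its absence of overlap may depend on the scaling.

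Genes outside the 56 gave the surroundings of this program. By the edgeR test over all 12623 genes, 5.21% were called lower and 3.75% higher. At an unadjusted p under 0.05, 1548 of all genes were lower and 1316 higher. A list of 66 other mitotic genes had 3 that fell and none that rose by the edgeR test (at an unadjusted p under 0.05, 6 lower and 2 higher) or by DESeq2, with a median log2 fold change of -0.07. Their summed level was 4587 to 4822 CPM with HCME-sEVs and 4448 to 4517 CPM with LME-sEVs, without overlap, and overlapped with library size only (4578 to 4748 CPM against 4511 to 4646 CPM). *Trip13*, an ATPase that remodels the checkpoint protein MAD2, was at -0.37 (SE 0.09, adjusted p = 0.0105), and *Cdc25a*, a phosphatase that activates CDKs, at -0.36 (SE 0.08, adjusted p = 0.0110). *Lmnb1* (lamin B1), of the nuclear lamina that mitosis takes apart, was at -0.25 (SE 0.07, adjusted p = 0.0360). *Trip13* was lost without LME-sEV replicate 2 or 3, *Cdc25a* without LME-sEV replicate 2, and *Lmnb1* without any of 5 libraries (HCME-sEV replicates 2 and 3 and each LME-sEV replicate, highest adjusted p 0.131) and under 3 of 4 other scalings. The 17 subunits and regulators of the anaphase-promoting complex and the 13 genes of cohesin held no call by the edgeR test (unadjusted p under 0.05: 3 lower among the former and 1 higher among the latter) and 0 by DESeq2, limma-voom or the likelihood ratio test, with medians of -0.04 and -0.07. The sum of the former was 1129 to 1160 CPM with HCME-sEVs and 1069 to 1094 CPM with LME-sEVs, without overlap, and overlapped with library size only (1097 to 1158 CPM against 1093 to 1105 CPM).

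Of the 19 MuvB, MYB, RB-family and E2F genes that control these promoters, 3 rose and none fell by the edgeR test (unadjusted p under 0.05: 5 higher and 2 lower), while DESeq2 called 1 higher and the likelihood ratio test 3 higher and 1 lower. They were *Rbl2* (p130), an RB-like protein of the DREAM complex, at 0.39 (SE 0.10, adjusted p = 0.0165), *Rb1* at 0.35 (SE 0.11, adjusted p = 0.0479) and *Tfdp2*, a dimerization partner of E2F proteins, at 0.31 (SE 0.10, adjusted p = 0.0489). *Rbl2* was at 46.8, 52.0, 47.9 and 47.3 CPM with HCME-sEVs and at 55.8, 66.3 and 68.4 CPM with LME-sEVs, without overlap. Its call was lost without LME-sEV replicate 2 or 3 (highest adjusted p 0.115). The calls of *Rb1* and *Tfdp2* each survived the loss of 1 library alone, HCME-sEV replicate 3 and HCME-sEV replicate 1, respectively.

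The 40 DNA replication genes, the phase before this one, had 6 that fell and none that rose by the edgeR test (unadjusted p under 0.05: 19 lower and 0 higher, and 4 lower and 0 higher by DESeq2), with 38 of 40 negative and a median log2 fold change of -0.18. Among the 6 called, the 5 with the largest change were *Mcm10*, *Gins1* and *Cdc6*, which load and start the replicative helicase, *Rfc5*, a subunit of the clamp loader, and *Uhrf1*, which maintains DNA methylation behind the fork, at -0.36, -0.36, -0.33, -0.34 and -0.33. The count fell to 3 without HCME-sEV replicate 2, HCME-sEV replicate 4 or LME-sEV replicate 1, to 1 without LME-sEV replicate 3 and to 0 without LME-sEV replicate 2, and it was 2 with library size only. Of the 5 named genes, *Cdc6*, *Gins1* and *Rfc5* were called under 1 of 4 other scalings, *Mcm10* under 3 and *Uhrf1* under 4. In the 7 fits on 6 libraries, *Cdc6* and *Rfc5* were called in 1, *Gins1* in 2, *Mcm10* in 4 and *Uhrf1* in 6. The summed level of the 40 replication genes was 6302 to 6554 CPM with HCME-sEVs and 5625 to 5976 CPM with LME-sEVs, without overlap. The ratio of the members' sum to that of the replication genes, chosen after the values were seen, was 2.15 to 2.20 in the HCME-sEV libraries and 2.32 to 2.38 in the LME-sEV libraries. The members' sum thus stood higher relative to the replication genes with LME-sEVs. This sum includes *Smc4*, which weighs heavily in it and rose, and the part of *Smc4* in the ratio was not tested.

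**Figure D4:**
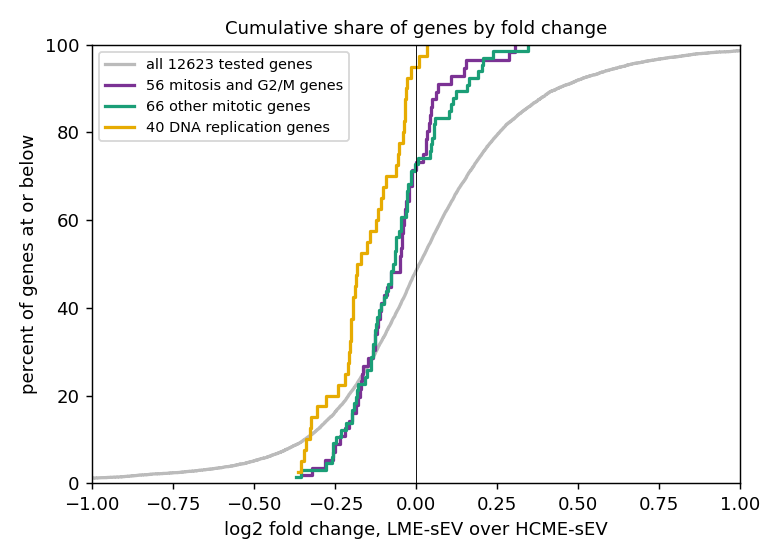
Cumulative percent of genes (y axis) at or below each log2 fold change (x axis, LME-sEV over HCME-sEV, cropped at -1 and 1) for the 56 members, 66 other mitotic genes, 40 DNA replication genes and all 12623 genes tested. The curves of both mitotic lists rise steeply around their medians of -0.05 and -0.07, and that of the replication genes lies to their left with a median of -0.18.

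**Figure D5:**
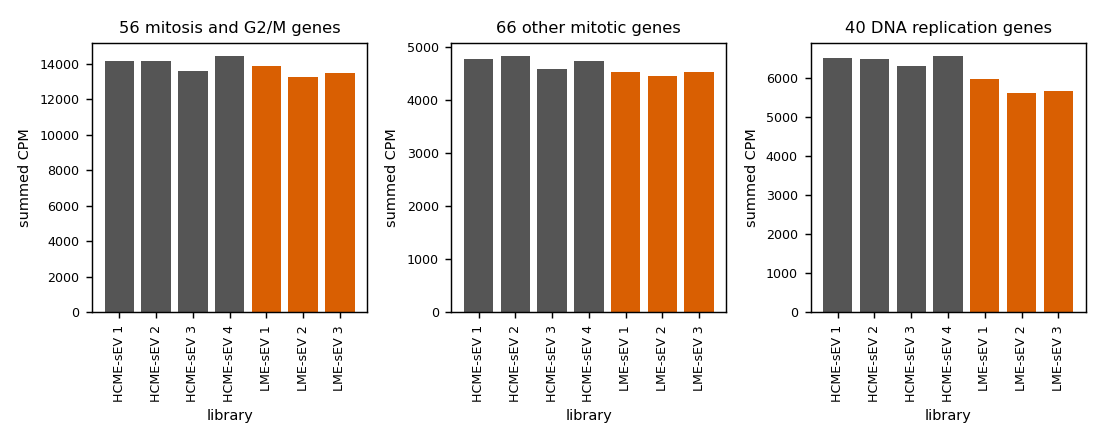
Summed TMM-normalized CPM (y axis, from 0) per library (x axis) of the members, the other mitotic genes and the DNA replication genes, with HCME-sEV libraries in grey and LME-sEV libraries in orange. The groups overlap for the members, between 13280 and 14427 CPM, and do not overlap for the other mitotic genes (4587 to 4822 CPM against 4448 to 4517 CPM, overlapping with library size only) or for the replication genes (6302 to 6554 CPM against 5625 to 5976 CPM).

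Library totals lay between 3689831 and 5030522 counts, and the detection floor of 3 counts equals 0.580 to 0.804 CPM, far below every member. All 8 CD8 T-cell markers were measured, with sums of 1987 to 2069 CPM with HCME-sEVs and 2192 to 2436 CPM with LME-sEVs, and *Cd3e* and *Cd3g* rose by the edgeR test, which also gave the marker calls below. None of the 3 CD4 markers reached the minimum, and none had more than 5 counts in a library. Markers of other cells were low: 5 of 12 B-cell markers were tested and none was called (sums of 22.5 to 27.4 CPM against 25.9 to 33.5 CPM), and 1 of 10 myeloid markers was tested (2.53 to 5.04 CPM against 6.96 to 9.65 CPM). Of 8 basophil, mast-cell and eosinophil markers, 7 were tested and 3 rose (7.44 to 37.9 CPM against 30.7 to 49.9 CPM), and of 9 erythroid and platelet markers, 7 were tested and 3 rose (74.4 to 182 CPM against 157 to 204 CPM). DESeq2 called 1 CD8 marker and none of the basophil, mast-cell and eosinophil markers (4 of the 7, *Prg2* among them, had no adjusted p there) or of the erythroid and platelet markers. Of the 8 edgeR marker calls only that of *Prg2*, an eosinophil granule protein, held without each library in turn. *Prg2* had 0, 2, 2 and 2 counts with HCME-sEVs, all under the floor of 3 counts, and 18, 41 and 21 with LME-sEVs. It thus reached the minimum for testing only through the LME-sEV libraries, and its fold change is not well measured. No marker was at 0 in every library. Mitochondrial transcripts took 6.48% to 7.67% of counts with HCME-sEVs and 6.44% to 6.54% with LME-sEVs. The part of these differences in the values of the mitotic genes was not tested.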

How the data were processed

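Libraries were made from the 3′ ends of transcripts (QuantSeq 3′ FWD) with unique molecular identifiers (UMI), so gene length does not enter. The authors trimmed reads with cutadapt 2.10, mapped them to GRCm38 with STAR 2.5.3a, collapsed UMIs with UMI-tools 1.0.0 and counted with featureCounts of Subread 2.0.0. The deposited values are raw counts per gene symbol. The annotation release and the strand setting of the counting are not given in the sources used here, so reads of genes that overlap cannot be told apart where strand was not used. UMI counts measure captured molecules, and floors and shares cover counting error only.

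A gene entered the fit when its counts averaged 5 or more per library. The quasi-likelihood test of edgeR 4.0.16 (glmQLFit, glmQLFTest; R 4.3.3) compared 3 LME-sEV with 4 HCME-sEV libraries after TMM scaling, and the Benjamini-Hochberg adjustment covered all 12623 genes. Intervals are 95% intervals of the fitted log2 fold change, fold changes of genes were calculated from the same fitted value, and a prior count of 2 was used for log2 CPM. Exact permutation tests of single members were two-sided. The test step was tested on simulated data. Genes were placed on GENCODE vM21, and 3′ ends were compared with blast 2.17.0 over the last 300 bases (95% identity over at least 200 bases). This found 10 members with a near-identical 3′ end elsewhere, 3 with same-strand and 13 with opposite-strand exon overlaps, and 34 with none of these.

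The members and lists were chosen with earlier results of these data known. Library values are given for members with an adjusted p under 0.05 and for the most abundant member of each of 12 roles. The libraries of *Cdk1*, *Smc2*, *Top2a* and *Hmgb2* were added after their values were seen. Of the other lists, the genes past the threshold are named, at most 5 per list and direction. Motifs were searched in RefSeq promoters of GRCm38.p6. Alternatives covered the scaling (DESeq2 size factors, upper quartile, library size only, TMM from abundant genes), the filter, the test (DESeq2 1.42.0, limma-voom of limma 3.58.1, likelihood ratio), the replicate number as a block, and leaving out each library.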

Additional observations from a re-analysis of the deposited data

Results flagged for a closer look

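Among 57 results tested for a library that stands apart within the 4 HCME-sEV libraries, by the gap to the nearest library divided by the range of the group, 3 exceeded Dixon's 95% critical value for 4 samples. Chance alone gives about 2.85 at 1 in 20. *Cdk1* had a ratio of 0.831, with HCME-sEV replicate 1 at 319 CPM and the others at 286 to 291 CPM. *Hmmr* had a ratio of 0.878, with HCME-sEV replicate 3 at 199 CPM and the others at 221 to 225 CPM. *Ncaph* had a ratio of 0.931, with HCME-sEV replicate 3 at 56.4 CPM and the others at 37.9 to 39.2 CPM. The group of 3 LME-sEV libraries was too small for this comparison. None of the 3 genes was called between the groups in the edgeR test.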

How the results depend on the processing

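In the 18 alternative fits, none of the 4 called members changed direction. The sign differed from fit to fit for 22 members, whose log2 fold changes were all within 0.08 of 0 as reported, and was the same throughout for the other 34. *Cdc20*, *Spc25*, *Smc4* and *Ncapd2* were called in all 11 alternatives that did not leave out a library, and 47 members were called in none of the 18. With the replicate number as a block, HCME-sEV replicate 4 has no LME-sEV library of its number and so adds nothing to the group comparison. *Ncapd2* was at 0.36 both in that fit and without HCME-sEV replicate 4. Further calls came for *Hmgb2* with no filter (adjusted p = 0.0182). With upper-quartile scaling and with TMM from genes of at least 50 mean counts, 3 DNA replication genes fell, and with library size only 2 did, the median of the members was -0.0051, and 2 members lay wholly above the controls. Without each library in turn, the called members ranged from 1 to 5, those lower from 0 to 4, those higher from 0 to 2, those past the fold cutoff from 0 to 0, the median from -0.0886 to -0.0532, the other mitotic genes that fell from 0 to 3 and the replication genes that fell from 0 to 6. The cause of these shifts was not tested, but fits without a library have fewer samples.

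With the replicate number of the labels as a block, 4 members were lower, the added ones being *Cdk1* (adjusted p = 0.0317) and *Hmgb2* (adjusted p = 0.00881), and 1454 genes were called. Deviations of libraries with the same number correlated at 0.07, 0.15 and 0.03 across genes, and those with different numbers at -0.21 to 0.08. Not all same-number values were over 0.1, and HCME-sEV replicate 3 correlated best with LME-sEV replicate 1. The numbers were therefore not taken as pairs, though no source used here says whether they mark pairs. At this depth the smallest differences that passed the test among the members were about 1.2-fold.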
